A study of Homo sapiens with 6 samples.

Results

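Ribosome biogenesis genes encode the proteins that make, modify and fold ribosomal RNA and join it to ribosomal proteins. A set of 45 such genes was described here in HepG2, an established hepatoblastoma line of human origin that still expresses many genes of hepatocytes. Each gene was looked up in the platform annotation, and where several probe sets carried its symbol alone, the brightest on average over the 6 arrays stood for the gene. This gave 38 genes of 45, out of 19775 genes with such a probe set. The other 7, NOP56, DKC1, GNL3, BOP1, DDX18, PPAN and EBNA1BP2, had no probe set with that single symbol and were not analysed here. All 38 lay above the floor used for testing, a signal of 12.9, with signals of 56.4 to 7504, and were among the 11921 genes tested.

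The cells had been transfected with an siRNA against HNF4A, a nuclear receptor that drives liver genes, or with a control siRNA. They then received TGF-beta, a cytokine that signals through Smad transcription factors, at 3 ng/ml. The groups were siHNF4A cells at 0, 1.5 and 24 h of TGF-beta and siControl cells at 0, 1.5 and 24 h, where 0 h cells had no TGF-beta. Every group had 1 Affymetrix array and thus no replicate. There were no untreated arrays at 1.5 or 24 h among those used, so TGF-beta and time in culture cannot be told apart. A single siRNA label stood for each arm, and effects of that siRNA on transcripts other than its target were not separated. The siRNA labels were taken as given, since the target's own level was not analysed here.

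Ribosome assembly starts in the nucleolus, where RNA polymerase I transcribes the precursor of the large ribosomal RNAs. Small nucleolar ribonucleoproteins (snoRNPs) then modify that precursor, of the box C/D class by methylation and of the box H/ACA class by pseudouridylation, and large assemblies of processing factors cut and fold it into the small (40S) and the large (60S) subunit. Many of these genes are textbook targets of the transcription factor MYC, which is why the MYC signal of the same arrays was set beside them. In liver cells the pathway is known to be active during growth and regeneration.

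The arrays were alike in scale, with median signals of 12.4 to 13.3, 49.1% to 50.7% of probe sets above the floor and pairwise correlations of 0.972 to 0.991. The siControl 0 h array stood apart in control probe sets for 18S ribosomal RNA, a mature product of the pathway described here. The 5′ control probe set read 8599.7 on that array and 69.8 to 736.5 on the other 5. The calls of the fit were therefore also made without it. All 8 hepatocyte markers lay above the floor on every array, with a summed signal of 53148.2 to 58156.6. Of the markers of other cell types, PTPRC (blood), VWF and CDH5 (endothelium) and COL3A1 (fibroblasts) lay below it on every array. CD14 (blood) at 13.9 to 100.3 and PECAM1 (endothelium) at 47.0 to 127.2 lay above it on all 6 arrays, and PDGFRB (fibroblasts) at 12.7 to 51.4 on 5. HBB (blood) was above it on 4 arrays, CD3E (blood) on 2 and LUM (fibroblasts) on 1. Summed over each whole list, 4 blood markers read 78.2 and 134 on the siHNF4A and siControl 24 h arrays, against 40.6 to 82.2 on the 4 earlier arrays. The 3 endothelial markers read 110.1 and 131.3 at 24 h, against 51.0 to 85.0 earlier, and the 3 fibroblast markers read 63.5 and 64.8, against 34.3 to 57.7. Their part in the results at 24 h was not tested. In such bulk RNA, fewer cells of a type and less RNA per cell cannot be told apart.

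At 24 h of TGF-beta most ribosome biogenesis genes had lower signals than at 0 h. Over both siRNAs 10 of 38 fell against 0 h, none rose and 28 did not pass the test. The 10 were NOP58, NHP2, LYAR, UBTF, NOP14, TSR1, MRTO4, NOP16, PES1 and WDR12, and they came from all 6 role groups, from polymerase I transcription to assembly of both subunits. Their log2 differences ran from -0.90 for NOP14 to -0.37 for WDR12. Of all genes tested 7.82% fell and 7.22% rose in the same comparison. The median log2 difference was -0.27 over the 38 genes and -0.03 over all genes tested. Of the 38 genes 37 were below zero, NPM1 being the exception, against 6376 of all 11921 genes tested.

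The test was limma on log2 signals with the siRNA and the time as terms, which takes the disagreement between the arms as error, with p-values adjusted by the Benjamini-Hochberg method over all 11921 genes and a threshold of 0.05. Differences are log2 values ± the standard error from limma. Without the siControl 0 h array 6 fell, RRP1B among them, and the median was -0.32, while LYAR, UBTF, NOP16, PES1 and WDR12 no longer passed, with differences of -0.54, -0.90, -0.49, -0.64 and -0.30. That fit had infinite prior degrees of freedom, so a gene's own spread did not enter its p-value, and its 0 h level rests on 1 array. With all 6 arrays the number that passed was 2 with a prior variance that ignores signal strength. It was 0 when dim genes were kept in the fit, and the median was -0.27 in both cases.

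Both arms showed the low 24 h level in single arrays. In siHNF4A cells the 24 h signal was the lowest of the time course for 32 of 38 genes, against 40.52% of all genes tested. In siControl cells it was the lowest for 31 of 38, against 39.98% of all genes tested. It was the lowest in both arms for 28 genes, a pattern shared by 26.2% of all genes tested. Signals at 24 h were under those at 0 h in both arms for 30 of 38, against 37.6% of all genes tested. For 21 of 38 both 24 h arrays read below all 4 earlier arrays, against 18.1% of all genes tested. The median single-array difference between 24 h and 0 h was -0.27 in siHNF4A cells and -0.29 in siControl cells, and the medians over all genes tested were -0.05 and -0.01.

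**Figure D1:**
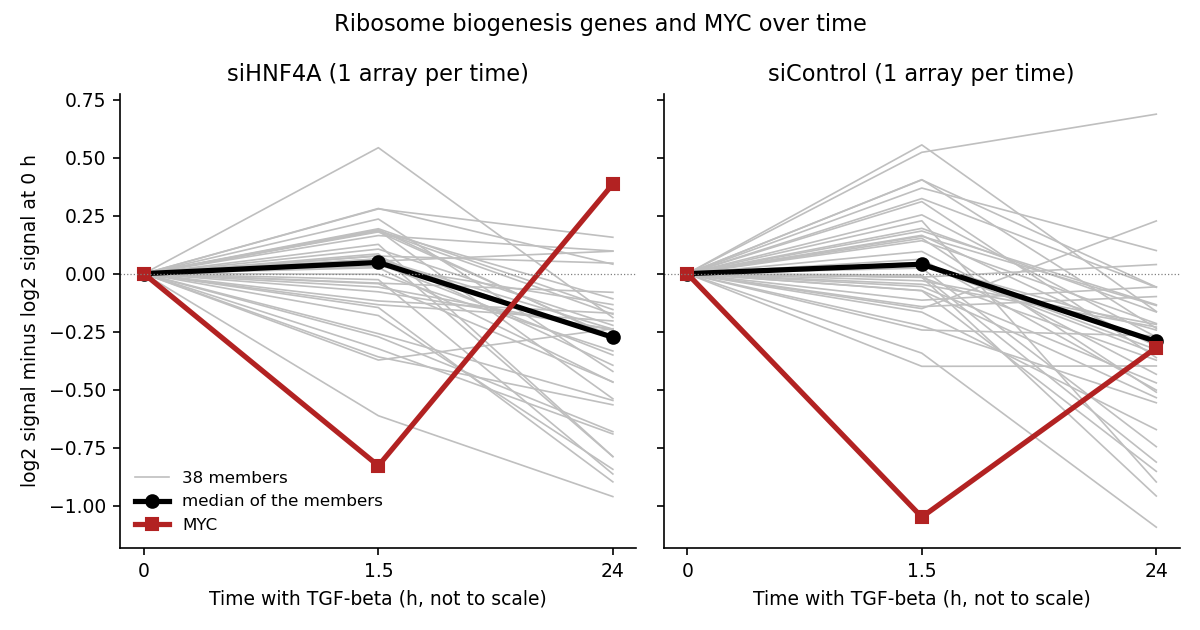
Log2 signal minus the 0 h log2 signal of the same arm (y axis) at 0, 1.5 and 24 h of TGF-beta (x axis, not to scale) in siHNF4A cells (left) and siControl cells (right), 1 array per point. Grey lines are the 38 ribosome biogenesis genes, the black line their median and the red line MYC. The median lies near zero at 1.5 h and at -0.27 and -0.29 at 24 h, while MYC is lowest at 1.5 h in both arms.

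Promoter sequence was examined for the E-box CACGTG, the motif bound by MYC with its partner MAX and by other factors such as USF. It reads the same on both strands. RefSeq windows of GRCh38.p14 from 250 bases before to 50 bases after a gene's start were found for 33 of the 38 genes. The motif lay in at least 1 window of 16 of these 33 genes (48.5%). Among all genes tested with a window it lay in 1224 of 9736 (12.6%), and among all windows of that length in 2548 of 35116 (7.26%), against 16 of 39 windows of these genes (41.0%). The median 24 h minus 0 h difference was -0.28 for the 16 genes with the motif, of which 4 fell, and -0.24 for the 17 without it, of which 5 fell. A match describes letters in a window and is no evidence of binding. The windows of the 4 genes with the motif that fell, and of NOP10, the motif-bearing gene with the highest 24 h minus 0 h difference, are shown 5′ to 3′ on the gene's strand, with each CACGTG in capitals. LYAR (chr4:4289972-4290271, minus strand) has the motif 64 bases before the start in 1 of its 2 windows. NOP14 (chr4:2963357-2963656, minus strand), PES1 (chr22:30591861-30592160, minus strand) and MRTO4 (chr1:19251555-19251854, plus strand) have it from bases 16, 14 and 15, counted from 1 at the start. NOP10 (chr15:34343087-34343386, minus strand) has it at 170 and at 11 bases before the start.
LYAR: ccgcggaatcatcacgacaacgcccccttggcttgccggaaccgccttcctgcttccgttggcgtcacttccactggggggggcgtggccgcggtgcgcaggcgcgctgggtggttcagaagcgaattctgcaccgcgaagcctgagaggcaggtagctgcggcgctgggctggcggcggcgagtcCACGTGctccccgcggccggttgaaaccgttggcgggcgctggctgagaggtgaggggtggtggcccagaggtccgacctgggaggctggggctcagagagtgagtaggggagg
NOP14: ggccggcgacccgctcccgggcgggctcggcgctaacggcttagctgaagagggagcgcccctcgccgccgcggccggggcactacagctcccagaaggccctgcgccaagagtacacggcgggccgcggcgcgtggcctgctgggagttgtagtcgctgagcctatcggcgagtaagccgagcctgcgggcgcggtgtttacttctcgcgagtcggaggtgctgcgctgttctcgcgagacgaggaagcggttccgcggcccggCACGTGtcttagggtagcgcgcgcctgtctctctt
PES1: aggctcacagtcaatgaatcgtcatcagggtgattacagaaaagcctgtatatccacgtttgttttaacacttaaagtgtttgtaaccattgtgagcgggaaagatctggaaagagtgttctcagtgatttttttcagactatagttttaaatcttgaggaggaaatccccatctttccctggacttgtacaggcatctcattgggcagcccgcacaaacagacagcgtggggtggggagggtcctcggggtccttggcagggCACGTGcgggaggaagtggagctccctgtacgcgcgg
MRTO4: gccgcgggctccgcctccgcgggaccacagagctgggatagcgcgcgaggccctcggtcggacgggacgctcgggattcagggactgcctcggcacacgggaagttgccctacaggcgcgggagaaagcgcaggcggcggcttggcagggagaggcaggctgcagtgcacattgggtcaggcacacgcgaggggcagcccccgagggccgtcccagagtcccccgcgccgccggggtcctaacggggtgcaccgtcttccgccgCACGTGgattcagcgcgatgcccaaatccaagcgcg
NOP10: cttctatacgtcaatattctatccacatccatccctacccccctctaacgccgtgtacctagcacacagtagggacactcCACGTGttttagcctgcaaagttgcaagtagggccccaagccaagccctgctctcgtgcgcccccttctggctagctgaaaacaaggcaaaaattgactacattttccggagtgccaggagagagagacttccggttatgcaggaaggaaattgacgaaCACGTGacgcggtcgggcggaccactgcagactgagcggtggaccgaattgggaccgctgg
In all but LYAR and NOP10 the motif lay just downstream of the annotated start, and NOP10, with 2 copies, differed by -0.01 between 24 h and 0 h.

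Box C/D snoRNP proteins were represented by FBL, the methyltransferase fibrillarin, and by NOP58, a core scaffold. NOP58 read 2556, 2712 and 1480.1 at 0, 1.5 and 24 h in siHNF4A cells and 2239.7, 2623 and 1203 in siControl cells. Both 24 h signals lay far below the other 4, and the fall was the most significant of the 38 genes: -0.84 ± 0.11 against 0 h (limma, adjusted p = 0.00015) and -0.999 ± 0.11 against 1.5 h (adjusted p = 3.59e-05). FBL read 1724, 1967 and 1423 in siHNF4A cells and 1999, 2066 and 1593 in siControl cells. Its 24 h signals were also the lowest, but the distance was smaller: -0.30 ± 0.11 against 0 h did not pass (adjusted p = 0.0803), and -0.42 ± 0.11 against 1.5 h did (adjusted p = 0.0187).

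The 3 measured proteins of the box H/ACA snoRNP, which pseudouridylates ribosomal RNA and is also part of telomerase, did not share a course. NHP2, a core RNA-binding subunit, read 1484, 1458 and 816 in siHNF4A cells and 1208, 1497 and 939.7 in siControl cells. It fell by 0.61 ± 0.13 against 0 h (limma, adjusted p = 0.00613) and fell by 0.75 ± 0.13 against 1.5 h (adjusted p = 0.00171), with both 24 h arrays below the rest. NOP10, the smallest core subunit, read 2520.1, 2656 and 2601 in siHNF4A cells and 2468, 2279.7 and 2372 in siControl cells. Its 24 h arrays lay inside the range of the earlier ones, and its difference from 0 h was -0.01 ± 0.11. GAR1, the subunit that helps position the substrate RNA, read 477, 540.2 and 395 in siHNF4A cells and 535, 482 and 626 in siControl cells. The 24 h array was thus the lowest in one arm and the highest in the other, and the mean difference from 0 h was -0.02 ± 0.18.

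Among nucleolar chaperones and organizers, LYAR, a nucleolar zinc finger protein linked to processing of ribosomal RNA, read 390.2, 444 and 269 in siHNF4A cells and 435, 343 and 204 in siControl cells. It fell by 0.82 ± 0.17 against 0 h (limma, adjusted p = 0.00528) and fell by 0.74 ± 0.17 against 1.5 h (adjusted p = 0.0104). NOLC1, a chaperone of snoRNPs, read 1104, 1299 and 824 in siHNF4A cells and 1094, 1226 and 881 in siControl cells. NCL, nucleolin, which binds the nascent precursor RNA, read 4720.0, 4980.2 and 3591 in siHNF4A cells and 3991, 4533 and 3637 in siControl cells. Both had their highest signals at 1.5 h in each arm, and passed only against that time: NOLC1 fell by 0.57 ± 0.12 (adjusted p = 0.00586) and NCL fell by 0.39 ± 0.10 (adjusted p = 0.0164), whereas against 0 h they differed by -0.37 ± 0.12 (adjusted p = 0.0554) and -0.26 ± 0.10 (adjusted p = 0.0956). NPM1, nucleophosmin, an abundant nucleolar chaperone, read 7018, 7286 and 7504 in siHNF4A cells and 6827, 6756 and 7015 in siControl cells. It was the only one of the 38 whose 24 h signal exceeded the 0 h signal in both arms, by 0.07 ± 0.09 on average (adjusted p = 0.671), an order held by 32.0% of all genes tested. Another NPM1 probe set ending in _s_at differed by -0.15, so its probe sets disagreed in sign.

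Of the RNA polymerase I group, UBTF, the factor that binds and opens ribosomal DNA, was the one that passed. It read 105, 94.9 and 56.4 in siHNF4A cells and 109, 103 and 60.3 in siControl cells, and fell by 0.87 ± 0.23 against 0 h (limma, adjusted p = 0.0176) and fell by 0.76 ± 0.23 against 1.5 h (adjusted p = 0.0372). The 2 arms gave nearly the same signal at each time, and all 3 other UBTF probe sets also differed below zero, by -0.98 to -0.45. The polymerase subunits did not pass. POLR1A, the largest catalytic subunit, read 132, 142 and 113 in siHNF4A cells and 104, 153 and 93.0 in siControl cells, which left the 24 h arrays overlapping the 0 h ones. POLR1B, the second catalytic subunit, read 531, 544 and 484 in siHNF4A cells and 513, 527 and 404 in siControl cells. Both POLR1B arrays at 24 h were below the other 4, and its difference from 0 h was -0.24 ± 0.14 (adjusted p = 0.303). POLR1C, shared with RNA polymerase III, read 299, 335 and 319.7 in siHNF4A cells and 369, 335 and 345 in siControl cells, with no common order of the times.

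Small subunit factors were measured in full, 13 of 13. NOP14, a component of the processome that forms on the 5′ part of the precursor, read 271, 239 and 151 in siHNF4A cells and 258, 255 and 133 in siControl cells. It had the lowest 24 h minus 0 h difference of the 38 genes, -0.90 ± 0.18 (limma, adjusted p = 0.00338), and fell by 0.80 ± 0.18 against 1.5 h (adjusted p = 0.00738). TSR1, which acts late on the 40S precursor, read 1208, 965 and 748 in siHNF4A cells and 875, 871 and 499 in siControl cells. It fell by 0.75 ± 0.14 against 0 h (adjusted p = 0.00204) and fell by 0.59 ± 0.14 against 1.5 h (adjusted p = 0.0103). The TSR1 probe sets disagreed: of 3 others, one differed by -0.70, one by 0.08 and one by -0.00. UTP4, a processome protein that joins the precursor early, read 1089, 1138 and 923 in siHNF4A cells and 1106, 1182 and 819 in siControl cells. It passed only against 1.5 h, where it fell by 0.42 ± 0.12 (adjusted p = 0.0369).

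RRP9, a protein of the U3 snoRNP that guides early cleavage, read 117, 96.9 and 73.0 in siHNF4A cells and 106, 90.7 and 72.1 in siControl cells. Its 24 h arrays were the lowest, with a difference of -0.62 ± 0.22 that did not pass (limma, adjusted p = 0.0793). WDR43, which belongs to the same early complex as UTP4, read 340.4, 351 and 267 in siHNF4A cells and 348, 363 and 246 in siControl cells. Its difference of -0.43 ± 0.16 had an adjusted p of 0.0856 in limma, again with both 24 h arrays at the bottom. UTP20, a large processome scaffold, read 171, 174 and 124 in siHNF4A cells and 188, 249 and 181 in siControl cells, so that all 3 siHNF4A arrays lay below every siControl array. The other 7 factors, the processome proteins WDR75 and UTP15, the export factor RRP12, the late factors BYSL, PNO1 and NOB1 and the RNA helicase DDX10, differed from 0 h by -0.27 (DDX10) to -0.04 (PNO1, a partner of NOB1, the endonuclease that trims 18S RNA), and none passed.

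Large subunit factors gave 11 measured genes of 15 listed, and 4 fell against 0 h. NOP16, a nucleolar factor of the 60S precursor, read 881, 855 and 638 in siHNF4A cells and 972, 866 and 609.9 in siControl cells. It fell by 0.57 ± 0.13 against 0 h (limma, adjusted p = 0.00755) and fell by 0.46 ± 0.13 against 1.5 h (adjusted p = 0.026). PES1 and WDR12 form a complex with BOP1 that is needed to process the precursor of the 60S RNAs. PES1 read 343, 286 and 235 in siHNF4A cells and 328, 364 and 229.9 in siControl cells, and WDR12 read 1386, 1449 and 1144 in siHNF4A cells and 1453, 1398 and 1049 in siControl cells. Both were lowest at 24 h in each arm. PES1 fell by 0.53 ± 0.17 against 0 h (adjusted p = 0.0481), with -0.48 ± 0.17 against 1.5 h (adjusted p = 0.0798). WDR12 fell by 0.37 ± 0.12 against 0 h (adjusted p = 0.043) and fell by 0.38 ± 0.12 against 1.5 h (adjusted p = 0.0452). These calls lay near the threshold. The PES1 call was lost in 7 alternative fits, with differences of -0.64 to -0.26. The WDR12 call was lost in 6 against 0 h (-0.37 to -0.28) and in 7 against 1.5 h (-0.38 to -0.20). MRTO4, which holds the place of the ribosomal stalk protein on the 60S precursor, read 429.8, 469 and 249 in siHNF4A cells and 501, 476 and 346 in siControl cells, and fell by 0.66 ± 0.16 against 0 h (adjusted p = 0.0107) and fell by 0.69 ± 0.16 against 1.5 h (adjusted p = 0.00905).

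Several large subunit genes had a different order of the times in the single arrays of each arm. RRS1, which helps bring the 5S ribonucleoprotein into the 60S precursor, read 241, 293 and 248 in siHNF4A cells and 394, 400.5 and 235 in siControl cells. The 24 h signal was thus close to the 0 h signal in siHNF4A cells and far below it in siControl cells. RRP1B, a nucleolar protein of the 60S precursor, read 1493, 1164 and 1009 in siHNF4A cells and 1120.1, 1236 and 965 in siControl cells. NIP7, a factor of ribosomal RNA processing, read 447, 651 and 392 in siHNF4A cells and 657, 498 and 499 in siControl cells, with its lowest siControl signals at 1.5 and 24 h almost equal. RRP1B differed from 0 h by -0.39 ± 0.13 (limma, adjusted p = 0.0667) and NIP7 by -0.29 ± 0.19 (adjusted p = 0.342). The 4 remaining genes, NOP2 (a methyltransferase of 28S RNA), GRWD1 and the nucleolar complex proteins NOC2L and NOC3L, differed by -0.20 to -0.12, and none passed. The single arrays of GRWD1, a histone-binding protein, ran in opposite orders, with 125, 81.6 and 64.1 in siHNF4A cells and 64.6, 92.8 and 104 in siControl cells.

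**Figure D2:**
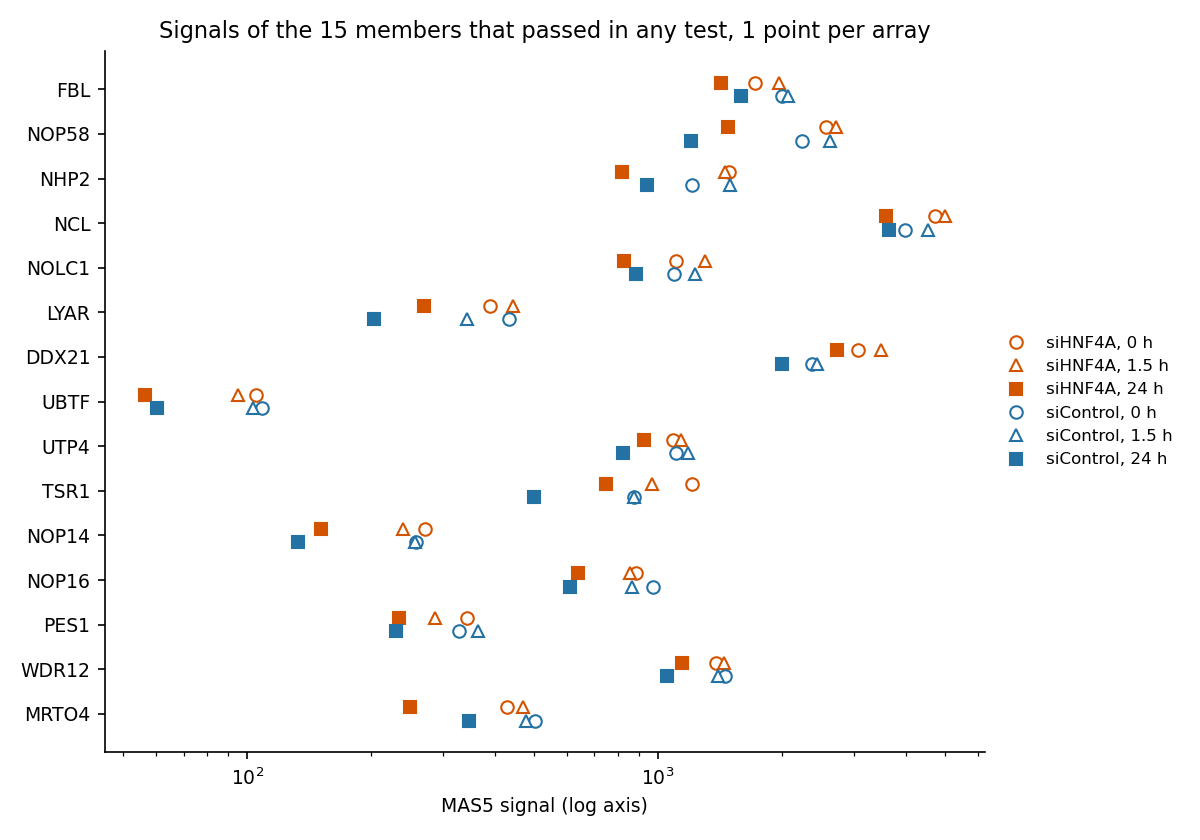
MAS5 signal (x axis, log scale) on each of the 6 arrays for the 15 genes that passed in any test (rows), with siHNF4A cells in orange above siControl cells in blue and the times as circles (0 h), triangles (1.5 h) and filled squares (24 h). The squares lie left of the other symbols of the same arm for each of the 15 genes. DDX21 has all 3 siHNF4A signals to the right of the siControl signal of the same time.

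Other probe sets of the same genes gave a check within the arrays. With a mean signal above the floor there were 31 further probe sets of these genes. Of these, 25 had the same sign of the 24 h minus 0 h difference as the chosen one. For the 10 genes that fell, 9 of 12 further probe sets had the same sign. The exceptions were 1 each of TSR1 (0.08), NOP16 (0.07) and WDR12 (0.01). A TSR1 probe set counted among the 9 differed by only -0.0025. The 12 belonged to LYAR, UBTF, TSR1, NOP16, WDR12 and MRTO4. NOP58, NHP2, NOP14 and PES1 had no further probe set with a mean signal above the floor and were not checked in this way. Without the _x_at and _s_at probe sets, whose probes can match other transcripts, TSR1 differed by -0.00, and 5 of 30 genes fell.

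Against 1.5 h of TGF-beta the 24 h signals were compared because the MYC signal was low at 1.5 h. Here 13 of 38 fell (FBL, NOP58, NHP2, NCL, NOLC1, LYAR, UBTF, UTP4, TSR1, NOP14, NOP16, WDR12 and MRTO4), none rose and 25 did not pass. Of all genes tested 7.01% fell and 6.40% rose. The median difference was -0.37, and -0.01 over all genes tested. This comparison and the one against 0 h share both 24 h arrays, so that their calls are not independent. With a prior variance that ignores signal strength 1 fell, and with dim genes kept in the fit 0 fell.

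**Figure D3:**
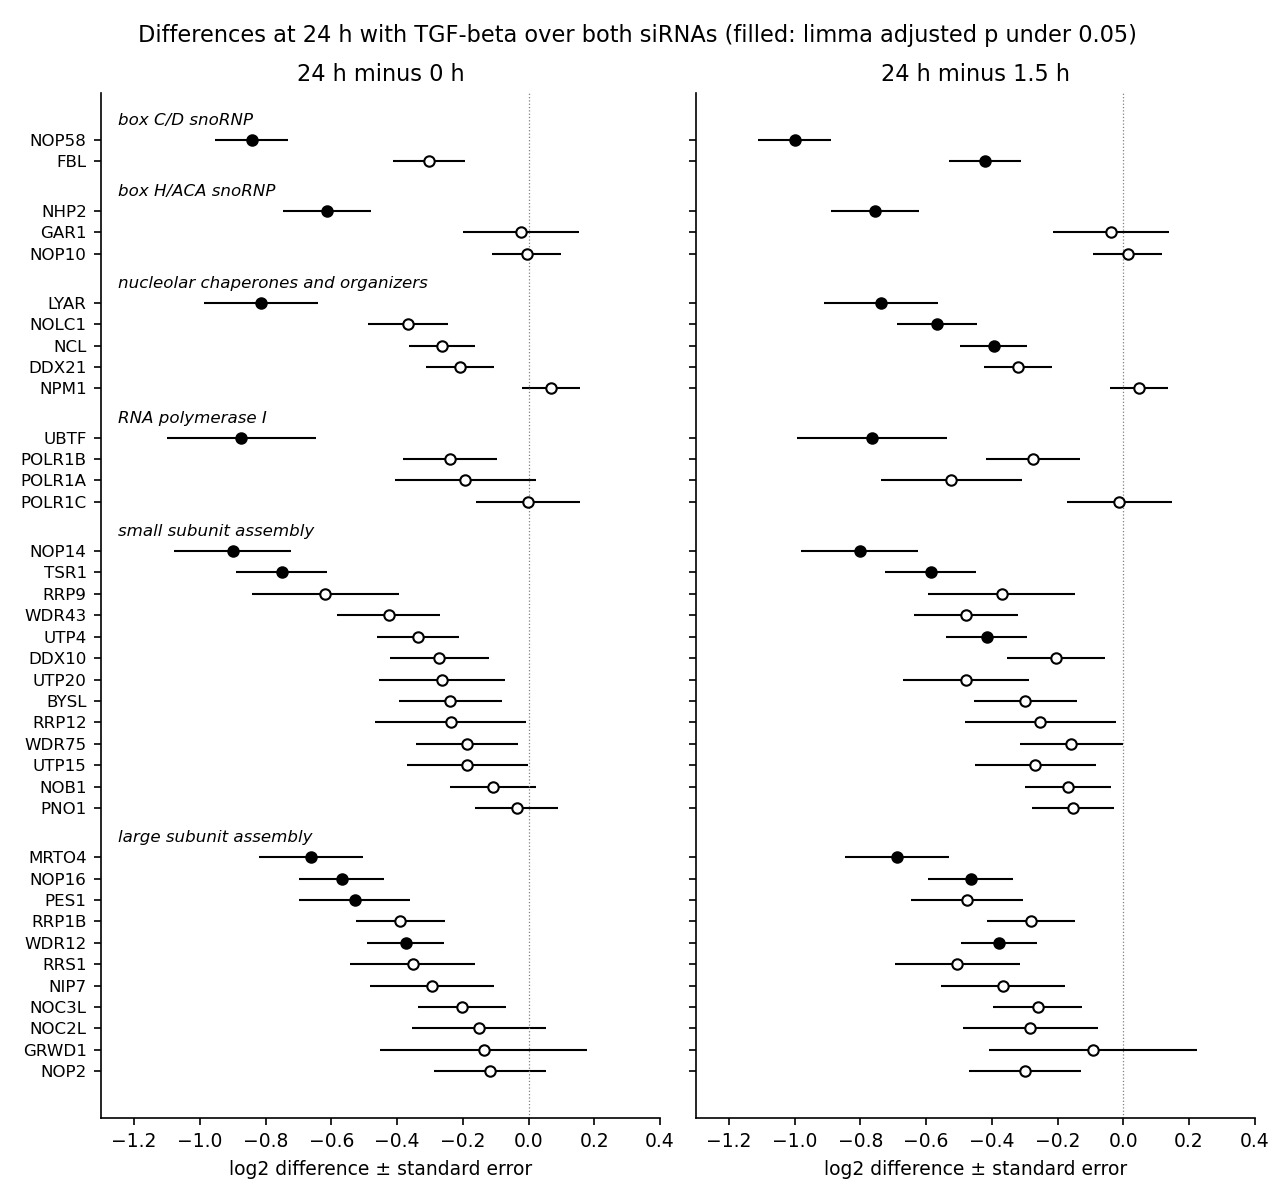
Log2 difference ± limma standard error (x axis) over both siRNAs for each of the 38 genes (rows, grouped by role), at 24 h against 0 h (left) and at 24 h against 1.5 h (right). Filled points have an adjusted p under 0.05 in limma, 10 on the left and 13 on the right, and all filled points lie left of zero.

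At 1.5 h none of the 38 genes passed against 0 h, and none had an unadjusted p under 0.05 in limma. The median difference was 0.04, with a range of -0.25 (RRP9) to 0.33 (POLR1A), and -0.01 over all genes tested, of which 0.101% passed in either direction. All of the alternative fits run also gave a count of 0. In single arrays 11 of 38 were highest at 1.5 h in both arms (FBL, NOP58, NCL, NOLC1, DDX21, POLR1A, POLR1B, WDR43, UTP4, UTP20 and RRS1), against 9.30% of all genes tested.

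MYC, the transcription factor held to drive many of these genes, had another course. It read 2140.1, 1206 and 2797 at 0, 1.5 and 24 h in siHNF4A cells and 1773, 857 and 1422 in siControl cells. The lowest signal was at 1.5 h in both arms, a pattern shared by 8.92% of all genes tested and by 0 of the 38 ribosome biogenesis genes. MYC fell by 0.94 ± 0.14 at 1.5 h against 0 h (limma, adjusted p = 0.0141) and rose by 0.97 ± 0.14 at 24 h against 1.5 h (adjusted p = 0.000465). At 24 h against 0 h it differed by 0.03 ± 0.14 (adjusted p = 0.912), the mean of 0.39 in siHNF4A cells and -0.32 in siControl cells. Thus at 1.5 h, when the MYC signal was low, the median of the 38 genes was 0.05 above its 0 h level in siHNF4A cells and 0.04 above it in siControl cells. At 24 h that median was low in both arms, while MYC was above its 0 h level in one arm and below it in the other. The interval between the times does not show in which order the signals moved, and whether MYC bears on these genes here was not tested. The arrays read the MYC transcript, and the level of MYC protein was not measured here. Without the siControl 0 h array MYC at 1.5 h differed by -0.71 and still passed. That call was lost when a gene's probe sets were averaged, when dim genes were kept and when the prior ignored signal strength, at the same difference.

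With the siHNF4A siRNA, over the 3 times, 2 of 38 genes rose, none fell and 36 did not pass, where 3.90% of all genes tested rose and 4.16% fell. DDX21, an RNA helicase that acts at ribosomal DNA and on snoRNAs, read 3068, 3484 and 2718 at 0, 1.5 and 24 h in siHNF4A cells, against 2371, 2439.8 and 2004 in siControl cells. All 3 siHNF4A arrays lay above all 3 siControl arrays, and the difference was 0.44 ± 0.08 (limma, adjusted p = 0.00465). A further DDX21 probe set was also higher in siHNF4A cells at each time, with 2790.3, 3737 and 1831 there and 1689, 1952 and 1421 in siControl cells. Without the siControl 0 h array DDX21 differed by 0.48 and passed. It no longer passed without the 24 h pair of arrays, with dim genes kept or when the prior ignored signal strength, at the same 0.44. TSR1 rose by 0.40 ± 0.11 (adjusted p = 0.0418), but the arms overlapped, since the siHNF4A array at 24 h read below the siControl arrays at 0 and 1.5 h. Its call was lost in 8 alternative fits, with a difference of 0.37 after leaving out the pair of arrays at 0 h or only its siControl array, and of 0.31 after leaving out the 24 h pair. The difference was 0.14 when a gene's probe sets were averaged and 0.13 without probe sets ending in _x_at or _s_at.

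The median siRNA difference of the 38 genes was 0.02, also without the siControl 0 h array, and -0.04 over all genes tested. The lowest value was that of UTP20, -0.40 ± 0.16 (adjusted p = 0.141), followed by RRS1 at -0.36 ± 0.15 (adjusted p = 0.189). MYC itself rose by 0.58 ± 0.12 with siHNF4A (limma, adjusted p = 0.00701). Its siHNF4A signal exceeded the siControl signal at each time, and the distance was widest at 24 h. Without the siControl 0 h array MYC differed by 0.73 and passed. Without the 24 h pair it differed by 0.38 and did not pass. The call was also lost when probe sets were averaged, when dim genes were kept and when the prior ignored signal strength, at the same 0.58.

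Whether the arms differed at 24 h from their difference at the earlier times was tested with an added term in the fit. None of the 38 genes passed, and neither did any other gene tested (0%). At an unadjusted p under 0.05 in limma there was 1 of the 38, GAR1 with -0.66 ± 0.27, and 541 of all genes tested. The smallest adjusted p of the 38 was 0.9994, and MYC gave 0.59 ± 0.21 (adjusted p = 0.999). GRWD1 had the lowest value, -1.08 ± 0.51, and RRS1 a value of 0.66 ± 0.30. All other fits run also gave 0 of the 38. The fit left 1 residual degree of freedom, and the lack of a call does not show that the arms acted alike.

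The genes were also set beside 4 further lists. Other ribosome assembly factors were 91 tested of 94 listed. At 24 h against 0 h 11 fell, none rose and 80 did not pass, with a median of -0.27. Over all genes tested 7.82% fell and 7.22% rose. The number of the 91 that fell was 2 with averaged probe sets, and 0 with dim genes kept or when the prior ignored signal strength. PAK1IP1, a factor of the large subunit pathway, read 467.6, 541.5 and 240.3 in siHNF4A cells and 540.6, 374.5 and 301.3 in siControl cells, and fell by 0.90 ± 0.19 (limma, adjusted p = 0.00511). NAT10, the acetyltransferase of 18S RNA, fell by 0.82 ± 0.17 (adjusted p = 0.00499). MDN1, the giant ATPase that strips factors from the 60S precursor, fell by 0.81 ± 0.20 (adjusted p = 0.0123), and RIOK1, a kinase of late 40S maturation, fell by 0.65 ± 0.19 (adjusted p = 0.0317). Against 1.5 h 15 of the 91 fell, with a median of -0.32, where 7.01% of all genes tested fell. Among the 15 were the RNA helicase DDX51 (-0.95 ± 0.30) and the nucleolar protein URB2 (-0.84 ± 0.24). Both 24 h arrays were below the other 4 for 46 of the 91, against 18.1% of all genes tested. Leaving out the siControl 0 h array gave 7 that fell and 1 that rose against 0 h (RCL1, a processome protein named after its value was seen, by 0.75 ± 0.25), and PAK1IP1, NAT10 and MDN1 were among the 7 but RIOK1 was not. With siHNF4A 2 of the 91 rose and none fell, where 3.90% of all genes tested rose and 4.16% fell. UTP3, a small subunit factor, rose by 0.68 ± 0.14 (limma, adjusted p = 0.00686) and TEX10, a large subunit factor, rose by 0.45 ± 0.12 (adjusted p = 0.0366). Without that array UTP3 still passed and TEX10 did not. NMD3, the export adaptor of the 60S subunit, then rose by 0.42 ± 0.14, and WDR74, a factor of 60S maturation, fell by 1.31 ± 0.20. WDR74 was also among the 7 that then fell at 24 h and differed by -1.80 ± 0.27 at 1.5 h against 0 h, which passed. NMD3 and WDR74 were named after their values were seen. In the fit without that array a gene's own spread did not enter its p-value.

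Cytosolic ribosomal proteins, the structural parts of the ribosome, stood on the other side of zero at 24 h against 0 h. In that comparison 7.22% of all genes tested rose and 7.82% fell. Of 52 tested of 80 listed none rose or fell at 24 h against 0 h in limma, 3 had an unadjusted p under 0.05, and 0 passed in 11 of the alternative fits. In the other, without the _x_at and _s_at probe sets, 1 of 22 rose, the 60S protein RPL31, by 0.88 ± 0.22, which was named after its value was seen. The median of the 52 was 0.11 at 24 h against 0 h. It was already 0.08 at 1.5 h against 0 h, and 0.01 at 24 h against 1.5 h, where 20 of 52 were below zero. The 24 h signal was above the 0 h signal in both arms for 43 of 52, against 1 of the 38 assembly genes and 32.0% of all genes tested. For 1 of 52 both 24 h arrays lay below the other 4, against 18.1% of all genes tested. For the siRNA 1 of the 52 passed, where 3.90% of all genes tested rose and 4.16% fell. With siHNF4A 1 rose, RPL11, a 60S protein, by 0.41 ± 0.08 (adjusted p = 0.00384), and it also passed without the siControl 0 h array, as did RPS21, a 40S protein named after its value was seen, at 0.31 ± 0.11.

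Of 32 other RNA polymerase I and III factors, 1 rose, 2 fell and 29 did not pass at 24 h against 0 h, with a median of -0.12. These counts stood beside 7.22% of all genes tested that rose and 7.82% that fell. None of these factors passed at 24 h, against 0 h or 1.5 h, with dim genes kept or when the prior ignored signal strength. POLR1G and POLR1F, both polymerase I subunits, fell by 0.79 ± 0.16 and 0.65 ± 0.19 (limma, adjusted p = 0.00466 and 0.0287). POLR1D, a subunit shared by polymerases I and III, rose by 0.40 ± 0.11 (adjusted p = 0.0227), reading 1924.7, 1953 and 2706 in siHNF4A cells and 2019, 1714 and 2514 in siControl cells. Against 1.5 h 1 rose and 3 fell, where 6.40% of all genes tested rose and 7.01% fell. The 3 were POLR1G, the polymerase III subunit POLR3K and GTF3A, the factor of 5S RNA genes. For the siRNA none of these factors passed with averaged probe sets, dim genes kept, a prior ignoring signal strength or no 1.5 h pair. In the main fit 1 of the 32 rose with siHNF4A and 1 fell, where 3.90% of all genes tested rose and 4.16% fell. POLR3G, a polymerase III subunit, rose by 1.18 ± 0.26 (limma, adjusted p = 0.0107). MAF1, the repressor of polymerase III, fell by 0.73 ± 0.19 (adjusted p = 0.0264). POLR1G, POLR1D, POLR3G and MAF1 also passed these tests without the siControl 0 h array, and POLR1F did not.

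Other growth genes held as MYC targets were 27 tested of 28 listed. At 24 h against 0 h 9 fell, none rose and 18 did not pass, with a median of -0.29. Over all genes tested 7.82% fell and 7.22% rose. The number of the 27 that fell was 5 with averaged probe sets, 0 with dim genes kept and 1 when the prior ignored signal strength. SRM, the spermidine synthase, fell by 1.04 ± 0.15 (limma, adjusted p = 0.000392), SLC7A5, a transporter of large neutral amino acids, fell by 0.90 ± 0.16 (adjusted p = 0.00161), RANBP1, a regulator of Ran, fell by 0.67 ± 0.11 (adjusted p = 0.000588), and PA2G4, a growth regulator also found on ribosomes, fell by 0.56 ± 0.16 (adjusted p = 0.0297). Against 1.5 h 12 of the 27 fell, with a median of -0.34, where 7.01% of all genes tested fell. None of the 27 was lowest at 1.5 h in both arms, against 8.92% of all genes tested. With siHNF4A 1 of the 27 rose, where 3.90% of all genes tested rose. It was ODC1, the first enzyme of polyamine synthesis, by 0.31 ± 0.08 (limma, adjusted p = 0.0265). Without the siControl 0 h array 8 of the 27 fell at 24 h against 0 h, SRM, SLC7A5, RANBP1 and PA2G4 among them, ODC1 no longer passed for the siRNA, and SLC7A5 fell by 0.45 ± 0.14 with siHNF4A. At 1.5 h against 0 h, and for the difference between arms at 24 h, no gene of the 4 lists passed in limma with all 6 arrays.

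**Figure D4:**
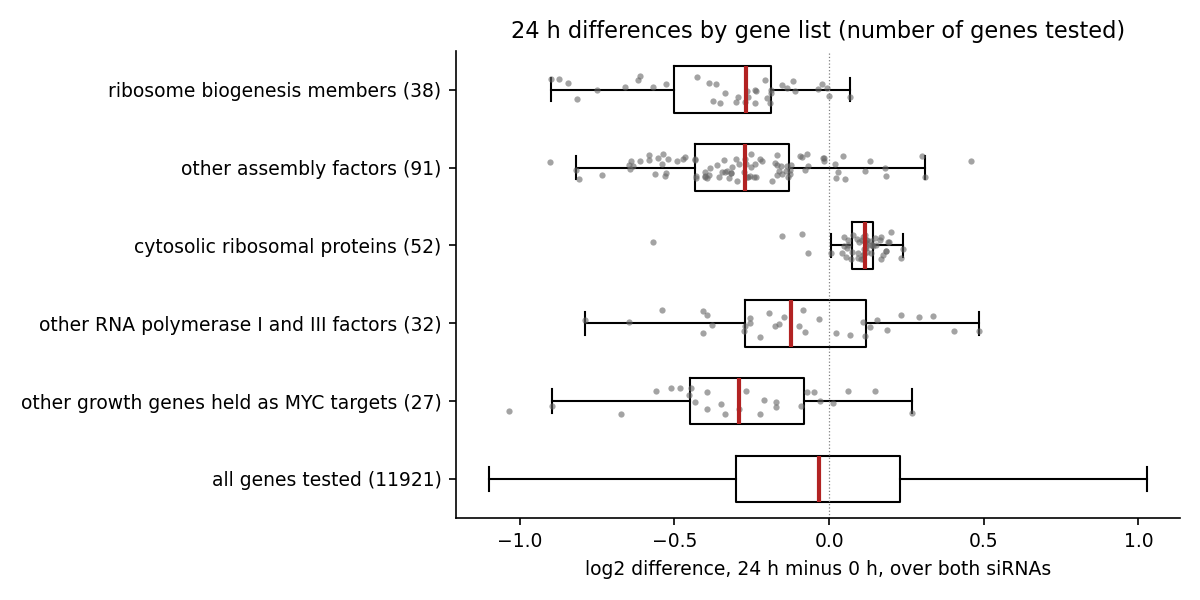
Log2 difference at 24 h against 0 h over both siRNAs (x axis) for the 38 ribosome biogenesis genes and 4 further lists (rows, with the number of genes tested), and for all genes tested. Points are genes, red lines medians, boxes the quartiles and whiskers the farthest genes within 1.5 box lengths, and outlying points of all genes are not drawn. The medians are -0.27 for the ribosome biogenesis genes, -0.27 for other assembly factors, 0.11 for ribosomal proteins, -0.12 for polymerase factors, -0.29 for MYC-target growth genes and -0.03 for all genes tested.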

How the data were processed

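Total RNA of 6 groups of HepG2 cells was hybridised to 1 array each. The deposited values are linear intensities, per the submitters' processing notes signals from the authors' use of MAS5 (5.0) in GCOS, software that summarises a probe set's probe pairs and scales each array. Of 54675 probe sets, the platform annotation gave 41097 1 symbol, 1801 several and 11777 none.

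Signals below a floor of 12.9, the median of all signals, were set to it, which shrinks differences of dim genes, and log2 was taken. The 11921 genes with a mean signal above the floor were fitted in R 4.3.3 by limma 3.58.1 (lmFit, then eBayes with a trend on mean signal), with siRNA and time as terms and 2 residual and 12.65 prior degrees of freedom. The fit with a term for the arms at 24 h had 1 residual and 8.398 prior degrees of freedom. P-values were adjusted by Benjamini-Hochberg over all genes, at a threshold of 0.05. With no replicates, p-values measure only how far times or arms disagree about a difference, and the number of arrays limits the precision. The step was also run on simulated data built to meet the fit's assumptions, which cannot show whether these arrays meet them.

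Values on every array were given for genes that passed in any test and for up to 3 more per role group with the largest differences; from each other list up to 4 genes per comparison were named. The genes and lists were chosen with earlier results of these data known. Promoter windows came from RefSeq (GRCh38.p14). Alternatives were quantile normalization, 2 scalings, other floors, a pseudocount, averaged probe sets of a gene, only probe sets without the suffix _x_at or _s_at, dim genes kept, no trend, and fits without both arrays of a time or without the siControl 0 h array. Tables and figures used Python 3.11.15, numpy 2.4.6, pandas 2.3.3 and matplotlib 3.10.9.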

Additional observations from a re-analysis of the deposited data

How the results depend on the processing

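The median difference of the 38 ribosome biogenesis genes kept its sign at 24 h in every alternative run, at -0.32 to -0.22 against 0 h and -0.37 to -0.31 against 1.5 h, and the counts of the 38 at 1.5 h and for the difference between arms stayed at 0. Medians near zero were less steady: the siRNA median (0.02) was -0.0047 without the 24 h pair, the siControl median at 1.5 h (0.04) was -0.0034 with scaling to the same median, and the median at 1.5 h over both arms (0.04) was 0.03 without the siControl 0 h array. The number of genes passing the test moved. The count that fell at 24 h against 0 h, 10 as reported, was 4 with averaged probe sets, 5 of 30 measured genes without probe sets ending in _x_at or _s_at, 0 with no filter on dim genes, 2 without the trend and 6 without the siControl 0 h array. The count against 1.5 h, 13 as reported, was 6, 4 of 30, 0 and 1 in the same first 4 settings. These counts do not say which genes passed, and RRP1B, named after its value was seen, was among the 6 without the siControl 0 h array. The count for the siRNA, 2 as reported, was 1 with quantile normalization, with averaged probe sets, without probe sets ending in _x_at or _s_at, without the 0 h pair and without the siControl 0 h array, and 0 with no filter on dim genes, without the trend and without the 24 h pair. The cause was not tested. With all dim genes kept, 19775 genes were fitted and limma's prior degrees of freedom were 0.6286, against 12.65, and without the trend they were 3.631. Without the siControl 0 h array or the 0 h pair they were infinite, so that a gene's own spread did not enter its p-value. No call recomputed for the 38 genes or MYC was reversed. In the 4 further lists no gene passed for the siRNA with no filter on dim genes or without the trend. The fit already sets times against each other within an arm and siRNAs within a time. No pairing beyond that was possible because each group had 1 array, which leaves no further replicate number to block on. A pair of arrays could not be left out of a comparison that uses its time, nor any array out of the test of the difference between arms, which would leave no residual degree of freedom. Signals of all 38 genes were above the floor on every array.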

Other observations

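The E-box CACGTG was also counted in the promoter windows of the other gene lists, as a description with no test, over all listed genes with a window. It lay in the window of 13 of 25 other growth genes held as MYC targets (52.0%), of 30 of 81 other ribosome assembly factors (37.0%) and of 7 of 26 other RNA polymerase I and III factors (26.9%). Cytosolic ribosomal protein genes held it in 4 of 64 (6.25%). The motif lay in at least 1 window of 8.78% of all genes in the promoter table, and of 12.6% of the genes tested with a window.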
